A study of Mus musculus with 27 samples.

Results

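The 10 genes described here mark immature neurons and were followed in whole retinas of wild type C57BL/6J mice from embryonic day 14 (E14) to postnatal day 60 (P60). They were taken by symbol from a table of 38168 features, and all 10 were found and passed the filter on low values. They are the SoxC transcription factor genes Sox4 and Sox11, the 5 microtubule genes Dcx, Stmn1, Stmn2, Tubb3 and Tubb2b, and the 3 growth cone genes Gap43, Dpysl3 and Crmp1. The 27 RNA-seq libraries comprised 3 at E14, 3 at E17, 4 at P1, 3 at P6, 4 at P15, 4 at P28 and 6 at P60. All animals were untreated and of 1 genotype, so age is the only difference that the labels give between groups. In the study's methods a library was a pool of embryos or of several mice, except that some libraries at P60 were individual mice and others pools. The sources used here do not say which P60 libraries these were. Embryos and P1 pups were of mixed sexes and later mice were males. Sex and age therefore cannot be told apart between P1 and P6, nor in any comparison of embryonic with mature retina. Levels are given in CPM, the reads of a gene scaled to a common total for each library, and so are shares of a library's reads. In whole tissue, fewer cells of a type and less RNA per cell cannot be told apart.

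SoxC factors are transcriptional regulators that are switched on as progenitors leave the cell cycle and that promote the genes of a young neuron. In the retina they are known for their part in making ganglion cells and other early neurons. A young neuron then builds an axon, which takes a supply of tubulin, proteins that bind microtubules or tubulin dimers, and proteins of the growth cone, the motile tip of the axon. Doublecortin, the product of Dcx, stabilizes microtubules in migrating and growing neurons. Stathmins, the products of Stmn1 and Stmn2, bind tubulin dimers and promote microtubule disassembly. Tubb3 and Tubb2b encode beta-tubulin isotypes that are abundant in developing neurons. Gap43 encodes a membrane protein of the growth cone, and Dpysl3 and Crmp1 encode collapsin response mediator proteins, which link guidance signals to the cytoskeleton.

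The windows around the starts of the SoxC genes and of Crmp1 are printed to show the sequence from which genes with such different courses are transcribed. RefSeq promoter windows on GRCm38.p6, with 250 bases before the annotated start and 50 after it, were found for 5 of the 10 members, namely Crmp1, Tubb3, Sox11, Sox4 and Dcx. The windows of Sox4 (chr13:28953650-28953949, minus strand), Sox11 (chr12:27342669-27342968, minus strand) and Crmp1 (chr5:37241808-37242107, plus strand) read as follows, 5′ to 3′. Capitals mark matches on either strand to the letters ACAAAG, a core that SOX proteins can bind, or CANNTG, the E-box of basic helix-loop-helix factors.
Sox4: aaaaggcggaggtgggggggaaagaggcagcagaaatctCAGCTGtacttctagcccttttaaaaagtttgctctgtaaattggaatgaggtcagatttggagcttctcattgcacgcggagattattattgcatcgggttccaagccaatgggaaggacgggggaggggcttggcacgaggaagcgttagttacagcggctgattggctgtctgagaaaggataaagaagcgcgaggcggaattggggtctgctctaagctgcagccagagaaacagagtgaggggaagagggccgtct
Sox11: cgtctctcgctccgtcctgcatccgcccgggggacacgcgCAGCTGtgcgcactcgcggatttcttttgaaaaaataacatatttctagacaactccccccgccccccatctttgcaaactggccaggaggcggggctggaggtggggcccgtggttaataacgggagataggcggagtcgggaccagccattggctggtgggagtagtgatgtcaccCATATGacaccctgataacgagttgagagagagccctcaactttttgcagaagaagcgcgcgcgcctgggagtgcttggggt
Crmp1: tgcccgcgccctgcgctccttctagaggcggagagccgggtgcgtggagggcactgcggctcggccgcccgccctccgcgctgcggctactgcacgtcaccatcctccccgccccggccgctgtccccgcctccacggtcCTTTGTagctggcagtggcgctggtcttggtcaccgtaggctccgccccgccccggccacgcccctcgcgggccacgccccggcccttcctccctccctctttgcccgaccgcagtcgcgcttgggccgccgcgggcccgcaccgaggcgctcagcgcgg
The Sox4 window held 1 E-box match and the Sox11 window 2. Crmp1 was the only one of the 5 windows with a match to the SOX core. For Crmp1 and for Dcx 2 starts are listed, and only the window of the first was examined. Over all 32851 promoter windows of this length, 72.3% held an E-box match and 18.7% a SOX core match. The Sox4 window also held 4 matches to CCAAT on either strand, letters that 37.4% of all windows contain at least once. The Dcx window held 1 match to TATAAA, as did 13.6% of all windows. In the printed windows no match overlapped another. Such matches are descriptions of letters and not binding sites.

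Tubb2b and its neighbour Tubb2a are so alike that short reads can fit both, which bears on the values of both genes. The coding sequences are of equal length, 1335 bases, and differed at 47 of them (96.5% identity). Near the 3′ end of the coding sequence, where tubulin isotypes usually differ most, 3 of 60 bases differed, in capitals here. These 3 leave the encoded amino acids unchanged, so both genes encode the same protein stretch here. The stretches lie at chr13:34127474-34127533 (Tubb2b) and chr13:34074471-34074530 (Tubb2a) on the minus strand of GRCm38.
Tubb2b: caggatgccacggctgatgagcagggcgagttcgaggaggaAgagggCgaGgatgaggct
Tubb2a: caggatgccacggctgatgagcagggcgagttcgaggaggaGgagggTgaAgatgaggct
Of the 50-base windows in Tubb2b transcripts of GENCODE M21, 36.93% also occurred in transcripts of other genes, including 31.34% in Tubb2a and 16.24% in the pseudogene Tubb2a-ps2. In Stmn1 18.87% of windows were shared, nearly all of them with the processed pseudogene Gm11223 (17.94%). In Sox4 54.09% were shared, through the lincRNA Gm26735, which overlaps 54.56% of the exonic length of Sox4 on the opposite strand. Without a stated strand setting, reads from Sox4 and this lincRNA cannot be told apart. Sox11, Tubb3, Gap43, Dpysl3 and Crmp1 shared no window, and Stmn2 (0.89%) and Dcx (0.2%) few.

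Libraries held 7076646 to 11330762 reads on listed features, and no member had fewer than 21 reads in any library. The labelled tissue was checked against markers. All 8 rod markers rose from embryonic to mature retina, and their summed level went from 23.7 to 30.9 CPM at E14 to 26294 to 32074 CPM at P60. All 7 progenitor markers fell, from a summed 5890 to 6145 CPM at E14 to 136 to 174 CPM at P60. Lens markers summed to 2.01 to 10.7 CPM in all libraries. Of the 5 markers of the retinal pigment epithelium 4 rose from embryonic to mature retina, and their summed level was 2.11 to 4.6 CPM at E14, 1.94 to 4.14 CPM at E17, 51.1 to 90.6 CPM at P15, 37.8 to 60.1 CPM at P28 and 19.2 to 79.7 CPM at P60. Their part in the members' values was not tested. Replicates 1 and 2 at P60 were the lowest of the 6 libraries for 6 of the 10 members (Stmn1, Stmn2, Tubb3, Tubb2b, Gap43 and Crmp1). They were therefore also left out, an alternative chosen after the data were seen, and the results it changed are given beside them. Steps up to P28 hold no P60 library. Their log2 fold changes are the same in that fit, and only the estimate of the spread, which all ages share, differs. Removing libraries picked for low values tends to narrow this spread, and that fit called more of all features at every step. Calls that it adds are therefore no support for a change.

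All 10 members were lower in mature retina (P15, P28 and P60, 14 libraries) than in embryonic retina (E14 and E17, 6 libraries). Each passed an adjusted p of 0.05 in limma on log2(CPM + 1), each changed by at least 2-fold, and in each case every mature library lay below every embryonic one. Over all 31760 features tested, 40.4% were lower by the adjusted p, 16.1% also by 2-fold, and 23% without overlap of libraries. The median log2 fold change was -3.60 over the members and -0.06 over all features. All 10 also varied over the 7 ages, as did 83% of all features. The embryonic to mature ratio of mean CPM ranged from 2.94 in Dpysl3 to 186 in Sox11. With P60 replicates 1 and 2 left out the count stayed at 10.

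Among the microtubule genes the largest difference was that of Tubb2b, -5.39 ± 0.11 (log2 fold change ± SE, mature against embryonic, adjusted p = 5.1e-28, limma), a 46.5-fold ratio of mean CPM. Dcx had a 25.7-fold and Stmn1 a 10.2-fold ratio, with Stmn1 at -3.32 ± 0.07 (adjusted p = 1.3e-27, limma). Tubb3 (-2.99 ± 0.08) and Stmn2 (-2.95 ± 0.07) were close to each other, at 8.23-fold and 7.79-fold. Of the growth cone genes, Gap43 differed most, at -3.88 ± 0.10 and 15.7-fold (adjusted p = 1.5e-25, limma). Crmp1 (-1.74 ± 0.06, 3.36-fold) and Dpysl3 (-1.57 ± 0.05, 2.94-fold) differed least of the 10. The ratio for Sox4 was 20.2-fold.

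**Figure D1:**
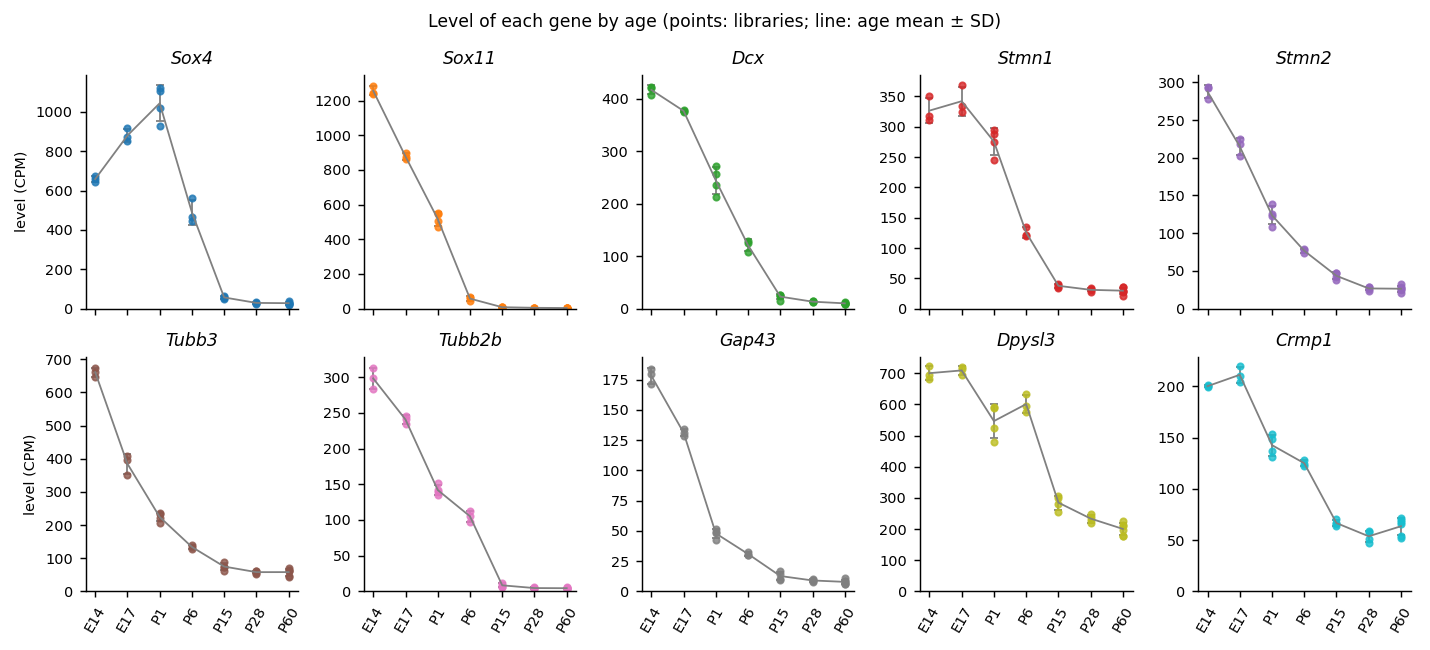
Level of each member in CPM (linear axis from 0, own scale for each gene) at the 7 ages, with a point for each of the 27 libraries and a line through the age means ± SD. Sox4 has its highest mean at P1, Dpysl3 is at 77.1% of its highest mean at P1 and 84.8% at P6, and all 10 genes have a lower mean at P15 than at P6.

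Sox11 (chr12:27334264-27342574 on GRCm38, minus strand, a gene of a single exon) encodes the SoxC factor with the steepest decline of the 10 members. Its libraries held 1243, 1286 and 1239 CPM at E14, 874, 861 and 899 CPM at E17 and 549.8, 469, 503 and 546 CPM at P1. At P6 they held 44.1, 66.2 and 63.8 CPM, and at P15 8.83, 9.61, 9.01 and 6.32 CPM. P28 libraries held 4.80, 5.48, 4.74 and 5.03 CPM, and the 6 at P60 ran from 2.89 to 4.51 with a median of 3.83. No library overlapped one of the next age, and each age lay below the one before. Of all 31760 features, 5134, 3424, 8074, 7718, 2129 and 719 were lower without overlap at the 6 steps in order. Mature retina was -7.35 ± 0.08 (log2 fold change ± SE) against embryonic retina (adjusted p = 1.2e-35, limma). The gene fell at each of the 6 steps between neighbouring ages, most at P6 against P1 (-3.15 ± 0.13, adjusted p = 2e-19, limma). The mean at P60 was 0.298% of that at E14. The last step, P60 against P28 (-0.35, adjusted p = 0.03, limma), was lost under 11 of the alternatives, the removal of any 1 library of P28 or of P60 replicate 3 or 5 among them.

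Sox4 (chr13:28948919-28953713, minus strand, also a single exon), the other SoxC gene, had its highest mean at P1 before it came down. Its libraries held 657, 643 and 675 CPM at E14, 871, 852 and 916 CPM at E17 and 1120.4, 926, 1019 and 1108 CPM at P1. P6 libraries held 444, 561 and 463 CPM and P15 libraries 47.6, 53.2, 61.7 and 65.8 CPM. At P28 the values were 36.2, 29.5, 27.3 and 23.9 CPM, and at P60 they ran from 20.4 to 40.5 with a median of 26.8 CPM. Libraries of E14, E17 and P1 stood in that order without overlap, and those of P28 and P60 overlapped. Of all 31760 features, 6564 were higher without overlap at E17 against E14 and 4784 at P1 against E17. Neither early step passed the test (0.42 ± 0.15 at E17 against E14, adjusted p = 0.087, and 0.24 ± 0.14 at P1 against E17, adjusted p = 0.38, limma). P1 against E14, a comparison added after the values were seen, was 0.66 ± 0.14 (adjusted p = 0.00063, limma). This p does not allow for the choice of these ages, so it does not establish a rise. E17 against E14 passed as a rise with P60 replicates 1 and 2 left out (adjusted p = 0.031, limma) and without P60 replicate 2 or 5. It also passed in the fit of the compared ages only and with the replicate number as a block (adjusted p = 0.041, limma). Sox4 then fell by 1.09 at P6 and by 3.08 at P15, both on the log2 scale, and mature retina was -4.38 ± 0.09 against embryonic retina (adjusted p = 4.4e-28, limma).

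The SoxC genes thus moved apart. Within a library, the log2 ratio of Sox11 to Sox4 had a mean of 0.93 at E14, lay within -0.03 to 0.01 in the E17 libraries and within -1.03 to -0.98 in those of P1. It ran from -3.30 to -2.84 at P6 and from -3.23 to -1.96 at P60. The mature and embryonic ratios did not overlap and differed by -2.98 (two-sided exact permutation test over libraries, p = 2.6e-05, the smallest that 6 against 14 libraries allow, adjusted p = 2.9e-05 over 10 pairs). Per kilobase of exon, Sox11 stood at 151 and Sox4 at 137 CPM at E14, against 6.98 and 102 CPM at P6. Sox12, the remaining SoxC gene, fell less, by 1.56 on the log2 scale, from 146 CPM at E14 to 50.5 CPM at P60. The log2 ratio of Sox4 to Sox12 was lower by 2.88 in mature retina (exact permutation test, adjusted p = 2.9e-05).

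Dcx (chrX:143855842-143933311, minus strand) declined from birth on. It held 407, 420.2 and 423 CPM at E14 and 379, 377 and 374 CPM at E17, with no overlap between these ages. Of all 31760 features, 5134 were lower without overlap at this step. P1 libraries held 256, 213, 236 and 273 CPM, those at P6 108, 126 and 129 CPM and those at P15 25.3, 24.4, 26.8 and 15.3 CPM. Later values were 14.8, 14.5, 12.2 and 11.9 CPM at P28, and ran from 8.40 to 12.1 with a median of 10.1 CPM at P60. E17 against E14 did not pass the test (-0.15 ± 0.14, adjusted p = 0.68, limma), and all later steps did. The largest fall was at P15 against P6 (-2.37 ± 0.13, adjusted p = 4.7e-15, limma). Mature retina was -4.68 ± 0.09 against embryonic retina (adjusted p = 1.2e-29, limma). The P60 step (-0.37, adjusted p = 0.033, limma) was lost under 10 alternatives, including those without P28 replicate 1 or 2 or P60 replicate 3, 4 or 5. Dclk1, which encodes a doublecortin-like kinase, fell by 1.13 on the log2 scale, and the log2 ratio of Dcx to Dclk1 was lower by 3.60 in mature retina (exact permutation test, adjusted p = 2.9e-05), the largest of the 10 pair differences.

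The stathmin genes reached about the same share of their highest mean, 8.67% in Stmn1 and 9.19% in Stmn2 at P60, by different courses. Stmn1 (chr4:134468320-134473843, plus strand) held 312, 317 and 351 CPM at E14, 324, 334 and 369 CPM at E17 and 295, 288, 274 and 245 CPM at P1. P6 libraries held 120.1, 135 and 121 CPM and P15 libraries 34.1, 36.5, 40.5 and 39.7 CPM. The values were 32.2, 28.2, 30.4 and 33.3 CPM at P28 and ran from 21.3 to 35.2 with a median of 29.4 CPM at P60. The libraries of E14 and E17 overlapped, and neither these ages nor E17 and P1 differed by the test (adjusted p = 0.86 and 0.087, limma). Stmn1 fell by 1.13 at P6 and by 1.71 at P15 on the log2 scale, and its later steps did not pass. With P60 replicates 1 and 2 left out the steps at P1 (adjusted p = 0.01, limma) and P28 (adjusted p = 0.035, limma) passed too. A further entry with the symbol Stmn1 held a mean of 70.0 CPM at E14 and 7.73 CPM at P60.

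Stmn2 (chr3:8509360-8561606, plus strand) fell before birth already. Its libraries held 292, 277 and 293 CPM at E14, 225, 202 and 218 CPM at E17 and 125, 109, 122 and 138 CPM at P1, without overlap. Of all 31760 features, 5134 were lower without overlap at E17 against E14 and 3424 at P1 against E17. The libraries of Stmn2 then fell further. They held 79.3, 73.7 and 77.2 CPM at P6, 37.3, 42.1, 47.2 and 47.3 CPM at P15 and 28.6, 23.9, 29.1 and 25.6 CPM at P28, and ran from 21.1 to 32.0 with a median of 26.5 CPM at P60. Each step down to P28 passed, from -0.42 at E17 (adjusted p = 0.014, limma) to -0.68 at P28 (adjusted p = 6.2e-05, limma), and none reached 2-fold. The step at E17 was lost without E14 replicate 1, without E14 replicate 3 or without E17 replicate 2 (adjusted p up to 0.079, limma). The log2 ratio of Stmn1 to Stmn2 ran from 0.09 to 0.26 at E14, from 0.82 to 1.39 at P1 and from -0.25 to -0.13 at P15. Its embryonic and mature values overlapped and differed by -0.36 (exact permutation test, p = 0.011, adjusted p = 0.011). Stmn3, another neuronal stathmin gene, fell by 0.31 on the log2 scale, and the ratio of Stmn2 to Stmn3 was lower by 2.69 in mature retina (exact permutation test, adjusted p = 2.9e-05).

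Tubb3 (chr8:123411424-123422015, plus strand) declined from the first step. It held 648, 675 and 662 CPM at E14, 408, 350.3 and 397 CPM at E17 and 233, 206, 223 and 235 CPM at P1. P6 libraries held 134, 141 and 127 CPM and P15 libraries 62.2, 74.5, 73.3 and 89.2 CPM. The values were 61.6, 60.2, 56.6 and 53.3 CPM at P28 and ran from 43.9 to 71.0 with a median of 61.7 CPM at P60, where replicates 1 and 2 were the lowest. The first 4 steps were nearly equal in size, between -0.74 and -0.84 on the log2 scale, and each passed (highest adjusted p = 3.5e-05, limma). P28 against P15 did not pass (-0.35, adjusted p = 0.086, limma). It passed with P60 replicates 1 and 2 left out (adjusted p = 0.0037, limma). Leaving out these low libraries narrows the shared spread, so this pass is no support for a fall. Per kilobase of exon, Tubb3 was the highest of the 10 members at both ends, at 354 CPM at E14 and 31.1 CPM at P60, followed closely by Dpysl3 at P60 (30.3 CPM). Tubb4a, a beta-tubulin gene of mature brain, did not pass in mature against embryonic retina (-0.12 ± 0.07, adjusted p = 0.14, limma). The log2 ratio of Tubb3 to Tubb4a was lower by 2.89 in mature retina (exact permutation test, adjusted p = 2.9e-05).

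Tubb2b (chr13:34126748-34130466, minus strand) fell most between P6 and P15. It held 298, 284 and 312 CPM at E14, 242, 234 and 246 CPM at E17, 151, 135, 143 and 139 CPM at P1 and 96.8, 112 and 106 CPM at P6. P15 libraries held 5.89, 6.19, 9.25 and 12.4 CPM, those at P28 5.46, 5.34, 2.84 and 4.65 CPM, and those at P60 ran from 3.24 to 5.63 with a median of 4.34 CPM. The gap between the lowest P6 and the highest P15 library was the widest between neighbouring ages of this gene on the log scale. Its fall at P15, -3.54 ± 0.18 (adjusted p = 2.8e-16, limma), was the largest single step of any member. P6 against P1 was -0.43 ± 0.18 (adjusted p = 0.056, limma), and it passed in the fit with P60 replicates 1 and 2 left out (adjusted p = 0.027, limma). The fall at P28 (-0.73, adjusted p = 0.0089, limma) was lost without P15 replicate 4, without P28 replicate 3 and in the fit of the compared ages only (adjusted p up to 0.096). Tubb2a, the near copy shown above, fell by 2.16 on the log2 scale and kept 20.0% of its E14 mean at P60, against 1.48% in Tubb2b. The log2 ratio of Tubb2b to Tubb2a was lower by 3.25 in mature retina (exact permutation test, adjusted p = 2.9e-05), and reads that fit both genes were not separated here.

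Gap43 (chr16:42248442-42340651, minus strand) was the member with its largest step at birth, though its step at P15 was close (-1.26 ± 0.16). Its libraries held 184, 171 and 179.6 CPM at E14, 134, 131 and 128 CPM at E17 and 51.4, 49.3, 48.3 and 42.7 CPM at P1. Later libraries held 30.2, 32.8 and 29.6 CPM at P6, 10.2, 9.35, 14.2 and 16.9 CPM at P15 and 7.46, 10.1, 9.74 and 8.67 CPM at P28, and ran from 6.06 to 10.7 with a median of 7.60 CPM at P60. Libraries of E17 and P1 were far apart, and those of P15, P28 and P60 overlapped. P1 against E17 was -1.44 ± 0.16 (adjusted p = 6.5e-08, limma), the 1 step of 2-fold among the members at that age. The step at E17 was -0.44 ± 0.17 and did not pass (adjusted p = 0.11, limma), but did with P60 replicates 1 and 2 left out (adjusted p = 0.042, limma). Basp1, which encodes a membrane protein related in function to Gap43, fell by 2.05 on the log2 scale. The log2 ratio of Gap43 to Basp1 was lower by 1.82 in mature retina (exact permutation test, adjusted p = 2.9e-05).

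Dpysl3 and Crmp1 declined least, and Dpysl3 was still at 84.8% of its highest mean at P6. Dpysl3 held 696, 681 and 724 CPM at E14, 712, 694 and 721 CPM at E17, 589, 480.1, 524 and 592 CPM at P1 and 595, 632 and 576 CPM at P6. P15 libraries held 255, 279, 299 and 305 CPM, P28 libraries 238, 248, 230.4 and 218 CPM, and P60 libraries ran from 178 to 225 with a median of 203 CPM. The lowest library up to P6 held 480.1 CPM, at P1, and the highest from P15 on 305 CPM. Dpysl3 fell at P1 against E17 (-0.38 ± 0.08, adjusted p = 0.0016, limma), and P6 against P1 did not pass (0.14 ± 0.08, adjusted p = 0.18, limma). P15 against P6 was -1.08 ± 0.08 (adjusted p = 3.6e-12, limma), and the steps at P28 (-0.28, adjusted p = 0.033, limma) and P60 (-0.22, adjusted p = 0.032, limma) were each lost under 9 alternatives. For P28 these included leaving out any of P15 replicates 2, 3 and 4 and P28 replicates 1, 3 and 4, and for P60 leaving out P28 replicate 1, 2 or 3 or P60 replicate 3 or 4. Dpysl2, the most widely expressed gene of this family, fell by 0.88 on the log2 scale. The ratio of Dpysl3 to Dpysl2 was lower by 0.74 in mature retina (exact permutation test, adjusted p = 2.9e-05), though its P6 values, from 0.94 to 1.01 on the log2 scale, were the highest of any age.

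Crmp1 (chr5:37241940-37292133, plus strand) held 199, 199.8 and 201 CPM at E14, 209.8, 204 and 219.7 CPM at E17 and 154, 131, 148 and 137 CPM at P1. P6 libraries held 124, 128 and 122 CPM and P15 libraries 63.8, 66.6, 65.6 and 70.2 CPM. The values were 59.0, 57.4, 47.4 and 50.9 CPM at P28 and ran from 52.1 to 71.8 with a median of 66.7 CPM at P60. Every library up to P6 lay above every later one. Crmp1 fell by 0.57 at P1 and by 0.90 at P15 on the log2 scale, and the steps at P6 (adjusted p = 0.13) and P28 (adjusted p = 0.053, limma) did not pass. P60 against P28 was 0.23 ± 0.08 (adjusted p = 0.053, limma), the only positive log2 fold change of a member after P15. With P60 replicates 1 and 2 left out the step passed, at 0.36 (adjusted p = 8.7e-05, limma), and it passed without either alone. These were its 2 lowest P60 libraries and were singled out after the values were seen. Leaving them out had to raise the difference, so these passes are no support for a rise. The step also passed with a mean of at least 10 CPM, with median-of-ratios scaling and in both edgeR fits. It did not pass with the replicate number as a block (0.17, adjusted p = 0.24, limma). No other age has replicates 5 and 6 (71.8 and 65.7 CPM), so the block fits these P60 libraries exactly. That step thus rests on P60 replicates 1 to 4. The ratio of Crmp1 to Dpysl2 was lower by 0.86 in mature retina on the log2 scale (exact permutation test, adjusted p = 2.9e-05).

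**Figure D2:**
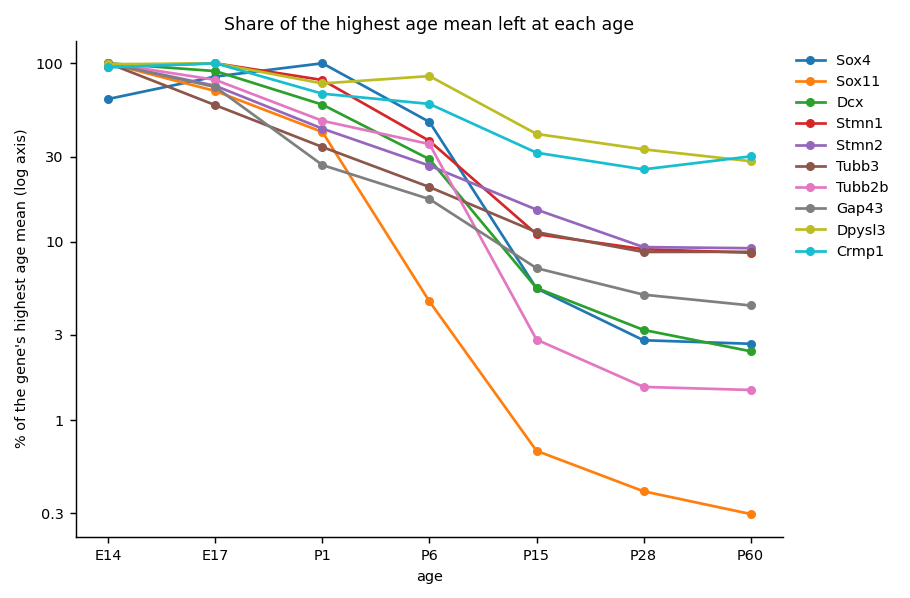
Mean of each member at each age as a percentage of its own highest age mean (log axis), one line for each gene. At P60 the genes spread from 0.298% in Sox11 to 30.1% in Crmp1, and Sox11 is already at 4.62% at P6.

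Step by step, the number of members that fell was 3 of 10 at E17 (Sox11, Stmn2 and Tubb3), beside 3.02% of all features, and none rose. At P1 8 fell, all but Sox4 and Stmn1, beside 3.43% of all features. At P6 7 fell, all but Tubb2b, Dpysl3 and Crmp1, beside 20.4% of all features. At P15 all 10 fell, beside 19% of all features. The counts then were 6 at P28 (Sox4, Sox11, Dcx, Stmn2, Tubb2b and Dpysl3) beside 1.58%, and 3 at P60 (Sox11, Dcx and Dpysl3) beside 8.11%. With P60 replicates 1 and 2 left out, 5 were called at E17 (Sox11, Stmn2, Tubb3 and Gap43 fell and Sox4 rose), 9 at P1 and 9 at P6. All 10 were called at P15 and at P28, and 4 at P60, where Crmp1 was the 1 that rose. Of all 31760 features, that fit called 4303 at E17, 3894 at P1, 13511 at P6, 11976 at P15, 1535 at P28 and 11344 at P60. In the main fit these calls, rises and falls together, were 3359, 2924, 12178, 10610, 864 and 4100. Member calls added by leaving out the P60 libraries are, as said above, no support for a change. The median log2 fold change over the members was -0.23, -0.69, -0.71, -1.48, -0.53 and -0.08 over the 6 steps in order. The largest step of a gene was P15 against P6 in 8 members, P6 against P1 in Sox11 and P1 against E17 in Gap43. In 3 of the 10 members the 2 largest steps were close. These were Stmn2 (-0.81 at P15, -0.80 at P1), Tubb3 (-0.84 at P15, -0.78 at E17) and Gap43 (-1.44 at P1, -1.26 at P15). The steps span unequal lengths of time, and the largest step was not counted over all features.

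**Figure D3:**
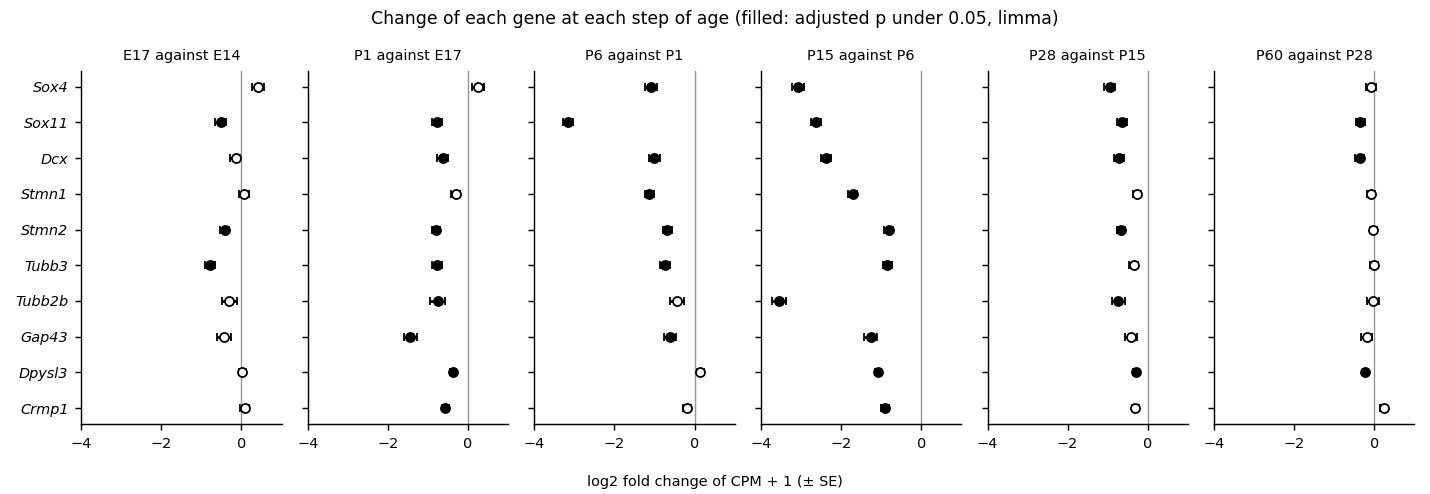
Log2 fold change of CPM + 1 (± SE, limma) of each member at each of the 6 steps between neighbouring ages, with filled points for an adjusted p under 0.05. All 10 points are filled at P15 against P6, where Tubb2b (-3.54) and Sox4 (-3.08) lie farthest to the left, and 3 are filled at P60 against P28.

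Falls of at least 2-fold were fewer. None occurred at E17 (0.702% of all features), 1 at P1 (Gap43, 0.614%) and 4 at P6 (Sox4, Sox11, Dcx and Stmn1, 6.74%). There were 7 at P15, all but Stmn2, Tubb3 and Crmp1 (3.31%), and none at P28 (0.22%) or P60 (0.378%). Sox4 counted as the 1 at P28 without P15 replicate 1 or without P28 replicate 1.

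Markers of other cells changed over the same ages. Progenitor markers summed to 4636 to 5037 CPM at P1 and to 542 to 608 CPM at P6. Ganglion cell markers summed to 1397 to 1445 CPM at E14, 578 to 676 CPM at P1, 927 to 1280 CPM at P15 and 629 to 780 CPM at P60. Of these 9 ganglion cell markers, 6 fell and 2 rose from embryonic to mature retina, with Pou4f2, a ganglion cell transcription factor gene, at -3.36 and Nefh, a neurofilament gene, at 4.56 on the log2 scale. Amacrine markers summed to 1101 to 1124 CPM at E14, 1834 to 1883 CPM at P1 and 880 to 969 CPM at P60. CPM values are shares of a library, so reads of rising genes lower the share of others. The part of these changes in the members' values was not tested.

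The within-library ratios depend little on how a library was scaled, through the added 1 CPM alone. In 9 of the 10 pairs mature and embryonic libraries did not overlap, with the smallest p the test can give, and the exception was Stmn1 to Stmn2. All pairs showed a lower ratio of the first gene in mature retina, from -0.36 to -3.60 on the log2 scale. This direction depends on the partner, and the pairs were chosen with earlier results of these data known. Dpysl5 (-2.52), not paired here, fell more than Crmp1 and Dpysl3, and Marcksl1 (-4.10) fell more than Gap43. The shared direction is therefore no result about the members as a set. A ratio shows that the genes changed unequally and does not show which of the pair moved.

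**Figure D4:**
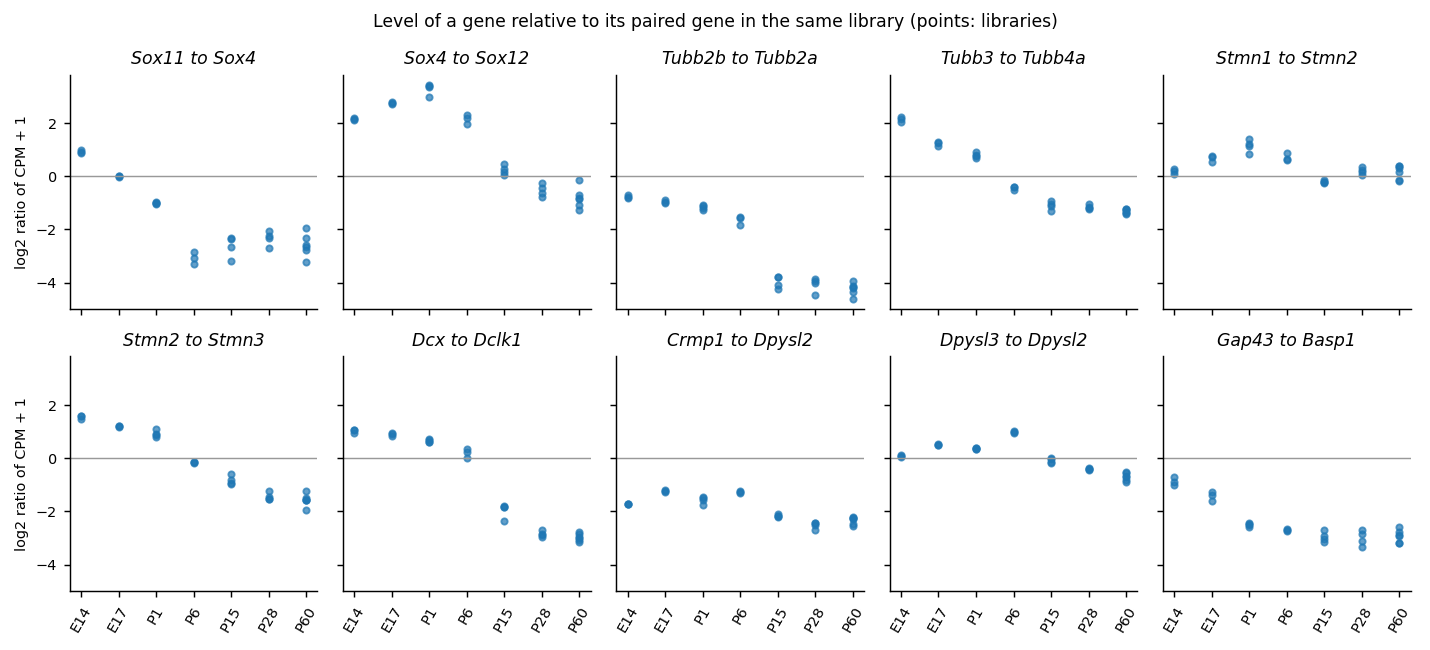
Log2 ratio of CPM + 1 of the first to the second gene of each of the 10 pairs in each of the 27 libraries, by age. The values are not per length, so their sign does not order the genes, and the ratio of Sox11 to Sox4 drops from a mean of 0.93 at E14 to between -3.30 and -2.84 at P6.

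The families of the members did not all follow them. Of 61 other genes tested in the same families and pathways, 42 fell and 16 rose from embryonic to mature retina, beside 40.4% and 35% of all features, with a median log2 fold change of -1.13. Of the 9 Sox genes outside SoxC that were tested, 6 fell, Sox2 (-3.01) and Sox3 (-2.68) most, and 3 rose, Sox6 (1.46) and Sox5 (1.31) most. Sox2 is a gene of progenitors and of Müller glia. Of 10 other tubulin genes 7 fell, led by Tuba1a (-2.90), the main alpha-tubulin gene of young neurons, and Tubb5 (-2.69). Tuba4a (2.19) and Tuba8 (1.38) rose.

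Within the doublecortin family 2 genes fell, Dclk2 (-1.54) and Dclk1 (-1.13), and 3 of 6 rose. Rp1 (8.48) and Rp1l1 (6.59) rose most. Both encode microtubule proteins of the photoreceptor outer segment, and Rp1 went from a mean of 3.87 CPM at E14 to 3849 CPM at P6 while Dcx fell. The other stathmin genes fell, Stmn4 by 2.38 and Stmn3 by 0.31, as did all 3 other genes of the collapsin response mediator family, Dpysl5 (-2.52) most.

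Among 4 other genes listed as growth-associated membrane proteins 3 fell, Marcksl1 by 4.10 and Marcks by 3.42 on the log2 scale. The listed gene that rose, by 2.26, was Cap2, which encodes an actin regulator and not such a membrane protein. It is also among the rises counted above for the families and pathways together. Of 8 structural microtubule-associated protein genes 5 rose and 3 fell, all by smaller amounts, between -0.77 in Mapt, the tau gene, and 1.22 in Map7. Of 18 further genes of immature neurons 15 fell and 2 rose. Cd24a, a surface protein gene, fell by 5.54 and Igfbpl1 by 4.48, while the kinesin gene Kif21b rose by 1.46 and Rufy3 by 0.84.

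**Figure D5:**
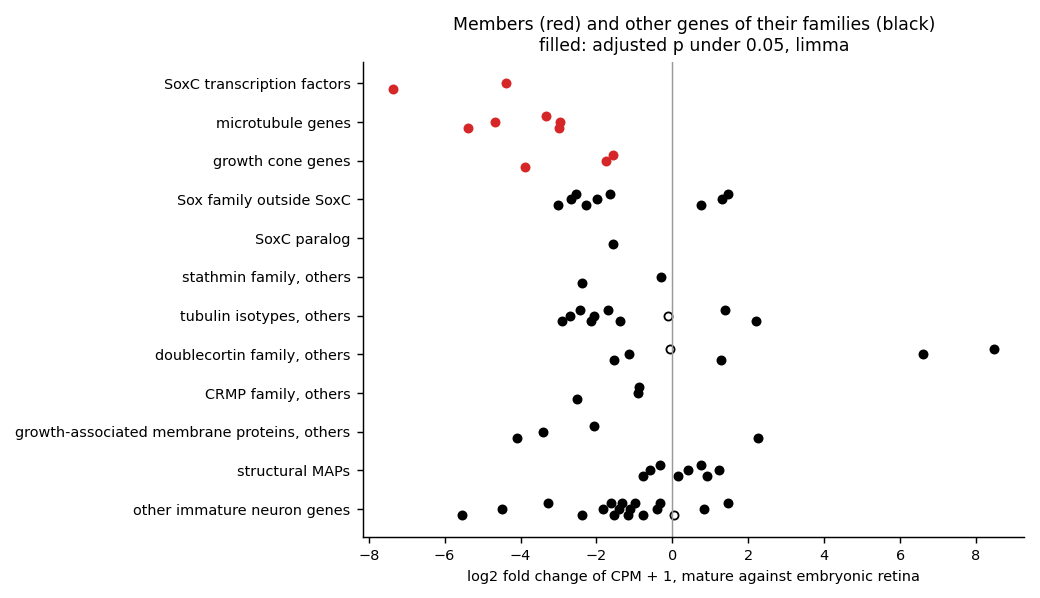
Log2 fold change of CPM + 1 in mature against embryonic retina for the members (red) and for the other genes of their families and pathways (black), each point 1 gene and filled where the adjusted p was under 0.05 (limma). All red points lie at or below -1.57, and the black points range from -5.54 (Cd24a) to 8.48 (Rp1).

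The shape of the decline was also compared with that of other genes. Over the 7 age means of log2(CPM + 1), the members' own correlation with their mean profile ran from 0.97 in Sox4 to 0.998 in Dcx (Pearson r). The features with a Gene ID closest to that profile outside the members were Trappc1 (r = 0.9991), H2afy2 (0.9985), D2Ertd295e (0.9984), H2afy3 (0.9983) and Rpl29 (0.9982). These values come from the same libraries, 7 points each, and most features changed with age. Their log2 fold changes in mature against embryonic retina were -1.02, -2.95, -1.92, -2.70 and -1.79 in that order, each smaller than the members' median of -3.60.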

How the data were processed

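The study measured whole mouse retina by RNA-seq (SMARTer total RNA libraries, sequenced from a single end by Illumina HiSeq). The authors aligned reads to GRCm38/mm10 with STAR and deposited 1 table in CPM, with a library's counts scaled to a common total and a column for each of 27 libraries. The annotation and strand setting of the counting are not given in the sources used here. In the table, 14905 of 38168 features have no Gene ID and 926 symbols are listed more than once. Of the members only Stmn1 is, and its entry with the higher mean was used.

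All values came out as whole reads (100.0% within 0.01 reads). Libraries held 7076646 to 11330762 reads (median 7968785), so 1 read was worth 0.0882 to 0.141 CPM. In E14 replicate 1 this value lies too near a round decimal for the check on whole reads to judge, and the count test was also run without it.

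Libraries were grouped by age from the labels. The deposited CPM were used as log2(CPM + 1). A feature was tested if 3 or more libraries reached 1 CPM, which left 31760. Age was the factor in a limma fit (trended prior variance) over the 27 libraries together, with two-sided p-values adjusted by Benjamini and Hochberg's method across every feature tested. A gene is said to have risen or fallen at an adjusted p under 0.05, and fold changes on this scale understate those of low genes. The study states no test for these data. For 10 pairs of related genes the log2 ratio within a library was compared by a two-sided exact permutation test over 38760 regroupings. For each age with 4 or more libraries the members' values were checked for a single distant library. Libraries were pools of animals or, for some at P60, individual mice, and the sources used here do not say which P60 libraries were which. The p-values measure the spread between libraries, which may be partly technical.

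The members, lists and pairs were chosen with earlier results of these data known. Genes named besides members and paired genes are the 2 largest rises and 2 largest falls of each list that passed, as far as the text describes the list, and the 5 features most like the members' mean profile. Alternatives were a pseudocount of 0.1, no filter, a mean of at least 10 CPM, a block for the replicate number, median-of-ratios scaling, a TMM-scaled quasi-likelihood fit in edgeR to the recovered reads, the compared ages only, summed entries of a symbol, and each library left out. After the data were seen, fits without P60 replicates 1 and 2, and the edgeR fit without E14 replicate 1, were added. The fits were tested on simulated data. Software was limma 3.58.1 and edgeR 4.0.16 in R 4.3.3, with pandas 2.3.3, scipy 1.17.1, numpy 2.4.6 and matplotlib 3.10.9 in Python 3.11.15. Exonic lengths, positions and shared 50-base windows came from GENCODE M21 on GRCm38, and promoter windows from RefSeq (GRCm38.p6). Isoform reads of the study were not analysed here.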

Additional observations from a re-analysis of the deposited data

How the results depend on the processing

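The comparison of mature with embryonic retina gave 10 of 10 members lower, 10 by 2-fold, and all 10 pair differences kept their direction and their side of the threshold under every alternative run for them. Of the values for single members, 2494 kept their side of the threshold, 51 passed it and 45 lost it only under an alternative, and none that had passed changed sign. Some small differences that had not passed did change sign, such as Tubb3 at P60 against P28. The counts at the weaker steps moved. At E17 against E14 the 3 members called became 7 in the fit of the compared ages only (Dcx, Tubb2b and Gap43 added as falls) and 5 with P60 replicates 1 and 2 left out (Gap43 added as a fall). Sox4 was added in both as a rise. Over all 31760 features the calls went from 3359 to 6605 and 4303 in these fits. At P28 against P15 the 6 called became 10 with P60 replicates 1 and 2 left out, and the calls over all features went from 864 to 1535. The members' count of 2-fold changes there went from 0 to 1 without P15 replicate 1 or P28 replicate 1 (range 0 to 1). At P60 against P28 the 3 falls called were lost with median-of-ratios scaling, in edgeR and in edgeR without E14 replicate 1, and the count of 1 in each was Crmp1, as a rise. It was 1 with the replicate number as a block, where Dpysl3 alone was called, and 0 in the fit of the compared ages only. Over all features the main fit called 4100 at this step, median-of-ratios scaling 4066 and edgeR 3481. The block called 1029 and the compared ages only 7. Leaving out 1 library at a time gave 0 to 4 members there, beside 1513 to 7516 of all features. It gave 4, with Crmp1 added as a rise, without P60 replicate 1 or 2, 0 without P28 replicate 1 or 2 or P60 replicate 3, and 1 without P28 replicate 3 or P60 replicate 4 or 5. The fit of the compared ages only estimates the spread from fewer libraries. Leaving out P60 libraries does not alter the log2 fold changes of steps up to P28, only the shared estimate of the spread. No other age has replicates 5 and 6, so the block fits these P60 libraries exactly. Its P60 step thus rests on P60 replicates 1 to 4. The cause of the remaining moves was not tested. Besides the P60 step, the block changed the count at E17 alone, to 4, with Sox4 added as a rise. Replicate numbers did not pair the libraries, since the correlation of deviations between same-numbered libraries of different ages ran from -0.129 to 0.167 (median -0.002, 69 pairs, 3 over 0.1), and 7 of 27 libraries correlated best with their own number. With edgeR or median-of-ratios scaling the median over all features in mature against embryonic retina was 0.04 and -0.003, against -0.06. The lowest members, Sox11 and Tubb2b at P28 and P60, rest on few reads in each library (21 in the lowest), which limits the precision of their late steps.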

Other observations

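Among 40 sets of a member and an age with 4 or more libraries, none held a library far from the others by Dixon's criterion. This criterion uses the gap to the nearest library, so it cannot flag 2 libraries that lie low close together. At P60 replicates 1 and 2 were the lowest of 6 libraries for Tubb3 (46.0 and 43.9 CPM, the others 61.6 to 71.0 CPM) and for Crmp1 (52.1 and 53.9 CPM, the others 65.7 to 71.8 CPM). For Stmn2 they held 21.1 and 24.1 CPM and for Gap43 6.16 and 6.06 CPM. For Sox11, Sox4, Dcx and Dpysl3 these were not the lowest pair, and the highest Sox11 (4.51 CPM) and Dcx (12.1 CPM) values at P60 were those of replicate 2. Among genes paired with members, Tubb4a held 124 and 104 CPM in these libraries and 148 to 171 CPM in the others, and Tubb2a 69.1 and 75.8 CPM against 109 to 127 CPM. The labels do not say in what these libraries differed from the rest. In the study's methods 2 of the P60 samples were pools and 4 were individual mice. Whether replicates 1 and 2 were the pools is not stated and was not tested.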
